A study of Equus caballus with 45 samples.

Results

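Equine macrophages stimulated with IL-1β and TNF-α were compared, across all genes, after conditioned medium (CM) of TLR3-activated mesenchymal stromal cells (TLR-MSC-CM) or of resting MSC (resting MSC-CM). The comparison used 6 of the 45 RNA sequencing libraries of the series, picked by cell type and medium in the sample labels, with 3 libraries per medium. The study used bone marrow MSC of 3 horses. The macrophage libraries carry a name PC, ORC or AG1, 1 library of each medium per name, which is taken here as the MSC line, and media were compared within it. The labels do not say what the name stands for: the MSC libraries of the series are named PC, 92 and 99, and ORC also stands on the macrophage libraries without CM. All macrophages came from the blood mononuclear cells of 1 horse, grown for 5 days in 30 ng/mL human M-CSF. Both groups received IL-1β and TNF-α, at 10 ng/mL each by the labels and 20 ng/mL each by the study's methods, and CM at a 1:3 ratio to macrophage medium. After 24 h the cells were washed and kept for a further 24 h before RNA was taken. In the TLR group the MSC had met poly I:C, a synthetic double-stranded RNA, for 2 h (10 ng/mL by the labels, 10 μg/mL by the methods), and in the resting group they had met no agonist. On this reading the replicates differ in MSC line and share a single macrophage donor, and the p-values measure the spread between such libraries. The macrophage libraries with CM of STING-activated MSC, 3 in number, entered the fit to estimate that spread, while the cytokines-only and no-addition libraries, 1 of each, are single values.

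Macrophages of the joint lining clear debris through scavenger receptors and lysosomes, and under inflammatory cytokines they release chemokines, neutrophil growth factors and matrix-degrading enzymes. Mature monocyte-derived macrophages divide little, and M-CSF sustains them in culture. TLR3 senses double-stranded RNA in the endosome and switches on interferon and NF-κB genes, and CM carries what the MSC secreted without carrying the MSC themselves.

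The 6 libraries held 23525704 to 40403096 counts, and a count of 3, taken as the floor, was 0.0743 to 0.128 CPM (counts scaled to library size), a limit that covers counting error only. Marker sums and this floor are scaled to the total count of a library, while the CPM of single genes and the list means are also scaled by TMM, a correction for RNA composition. Of 18 macrophage markers, 17 were in the table, and all 17 were above the floor in each library, with a summed level of 13332 to 15803 CPM. The libraries also held RNA of lymphocytes, since 6 of 6 T cell markers (CD3D, CD3E, CD3G, CD2, CD5 and LCK) and 4 of 4 NK cell markers were above the floor throughout. In the line order PC, ORC and AG1, which is kept for all values from here on, the T cell markers summed to 321, 370.1 and 352 CPM with resting MSC-CM and to 381, 346 and 561 CPM with TLR-MSC-CM, against at most 0.0734 CPM in synoviocyte libraries. The T cell sum was thus higher with TLR-MSC-CM in PC and AG1, lower in ORC, and highest in the AG1 library with TLR-MSC-CM. With TMM the T cell sums were 324, 379.97 and 351 CPM and 373, 344 and 520.1 CPM, with the same order of media in each line. The NK cell markers summed to 125, 139 and 148 CPM and 155, 122 and 229 CPM in that order. Stromal markers summed to 8.98 to 16.95 CPM with resting MSC-CM and 6.12 to 30.8 CPM with TLR-MSC-CM, and COL1A1 was among the 9 of 10 that the table lists. Neutrophil markers (4 of 6 listed) summed to 281 to 591 and 437 to 582 CPM, B cell markers (4 of 5 listed) to 4.73 to 8.50 and 5.77 to 9.74 CPM, and platelet markers (3 of 4 listed) to 3.11 to 5.06 and 3.40 to 5.94 CPM. In bulk RNA, fewer cells of a type and less RNA per cell cannot be told apart. The AG1 libraries stood apart: on the first principal component of the 9 macrophage libraries with CM, which held 41.6% of the variance, they scored −30.8 (TLR-MSC-CM), −22.5 (resting MSC-CM) and −7.82 (STING-MSC-CM), against −0.786 or above in PC and ORC. Of the variance of that component 77.9% lay between lines and 17.9% between media, and the main counts are therefore also given without AG1.

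Of 15052 genes tested, 0 (0%) reached an adjusted p under 0.05 with edgeR's quasi-likelihood test with the MSC line as a block, and the smallest adjusted p was 0.775. At an unadjusted p of at most 0.05, 459 genes were higher with TLR-MSC-CM (3.05% of those tested) and 484 were lower (3.22%). DESeq2 with the line as a term gave an adjusted p under 0.05 for 10 genes (0.0664%). The same sign in 3 of 3 lines was found for 1777 genes on the higher side (11.8%) and 2385 on the lower side (15.8%). Counted on CPM, the ranges of the media did not overlap for 423 genes that were higher (2.81%) and 388 that were lower (2.58%). At the study's own thresholds, an unadjusted p up to 0.05 with a log2 difference of 2 or more, 38 genes were higher (0.252%) and 43 lower (0.286%). Of these 81 genes, 72 had no more than 3 counts in any library of one medium, so large fold changes were found at very low counts. Among the 11561 genes with a mean of at least 1 CPM, 809 had p of at most 0.05 and 17 of these a log2 fold change past 1 in either direction. Without the AG1 libraries 258 genes were higher (1.78%) and 268 lower (1.85%) at p of at most 0.05, of 14511 tested. Without the ORC libraries 522 were higher (3.55%) and 513 lower (3.48%) of 14723. Without the PC libraries 384 were higher (2.61%) and 471 lower (3.2%) of 14699. Counts with a line left out are read beside the shares of the same fit. The median log2 fold change over all genes was 0.0060. The genes are described below by 38 lists of pathways and cell types, each read beside these shares of all genes.

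**Figure D1:**
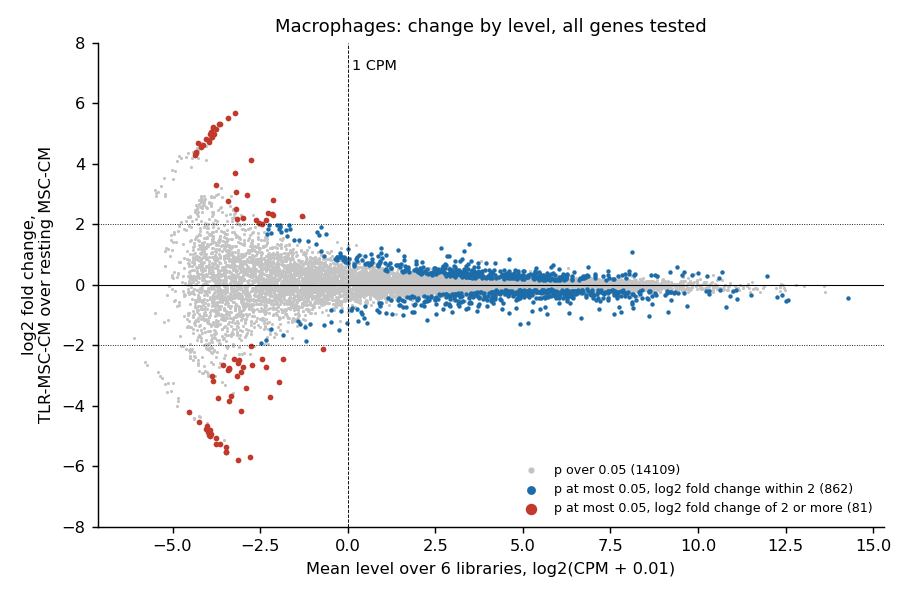
Log2 fold change of TLR-MSC-CM over resting MSC-CM in macrophages (vertical axis) against the mean level over 6 libraries on a log2 axis, 1 point per gene tested, with genes at p of at most 0.05 in blue and the 81 past the study's fold threshold in red. All red points lie left of the dashed line at 1 CPM, and the blue points right of it lie mostly within 1 of zero on the log2 scale.

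Among genes with a symbol, those with the smallest p-values on the lower side included secreted and surface proteins of inflammatory macrophages. The 12 genes per direction, and most genes named for the lists below, were picked for the same sign in 3 of 3 lines. For them that agreement holds by the picking and is no further support. They were also picked for a small p in the same libraries. Media that do not overlap, or a low permutation p, are therefore no further support either. CSF3, which encodes the neutrophil growth factor G-CSF, stood at 7.90, 85.8 and 58.5 CPM with resting MSC-CM and 4.89, 40.8 and 16.3 CPM with TLR-MSC-CM (log2 fold change −1.25, SE 0.24). It was lower in 3 of 3 lines, but the lines differed more than the media did, so both ranges overlapped. CCL2, the chief monocyte chemoattractant, went from 5695, 8868 and 6949.7 CPM to 4586, 6786 and 3804 CPM (log2 fold change −0.51, SE 0.11). SERPINB10, a leukocyte serine protease inhibitor, had 5612, 9384 and 5779.8 CPM and 4514, 6783 and 3136 CPM (log2 fold change −0.54, SE 0.11). For both genes the AG1 line showed the widest gap, and all 3 lines were lower. F3, tissue factor, the trigger of coagulation, had 101, 188 and 190.0 CPM and 79.97, 153 and 101 CPM (log2 fold change −0.51, SE 0.11). PPBP, the precursor of the neutrophil-attracting chemokine CXCL7, had 20.6, 55.1 and 52.8 CPM and 12.8, 31.5 and 8.59 CPM (log2 fold change −1.30, SE 0.29). Its level with TLR-MSC-CM in AG1 was the lowest of the 6 libraries. NT5DC2, a protein of the nucleotidase family, had 46.4, 82.6 and 52.2 CPM and 34.2, 62.7 and 18.8 CPM (log2 fold change −0.73, SE 0.18). MTSS1, which shapes actin-rich membrane edges, was the most even of this group, with 91.4, 93.4 and 92.4 CPM and 64.4, 76.9 and 73.6 CPM (log2 fold change −0.37, SE 0.091). Its groups did not overlap, and the exact permutation test over libraries gave 0.1, the smallest p that 3 against 3 allows. XG, a surface glycoprotein, did not overlap either, with 31.8, 38.3 and 31.9 CPM against 23.6, 30.7 and 19.1 CPM (log2 fold change −0.48, SE 0.11). NLRC4, an inflammasome sensor of bacterial proteins, had 31.7, 39.4 and 27.3 CPM and 28.8, 26.3 and 17.6 CPM (log2 fold change −0.45, SE 0.11), and was lower in each line. NME7, SCG3 and STRIP2 completed the 12 genes on this side, with log2 fold changes of −0.47, −0.39 and −0.54 and SEs up to 0.13. None of them passed edgeR's test after adjustment over all genes, and the same holds for every gene named from here on.

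On the higher side the smallest p-value of all belonged to ENSECAG00000042150, listed by identifier only, at 7.18, 3.54 and 4.46 CPM and 13.2, 4.96 and 11.2 CPM (log2 fold change 0.95, SE 0.18). Among genes with a symbol, the smallest p-values on this side were spread over signalling, lymphocyte and cell division genes. PDE11A, a phosphodiesterase that breaks down cAMP and cGMP, stood at 14.9, 11.3 and 15.1 CPM with resting MSC-CM and 18.7, 18.4 and 20.8 CPM with TLR-MSC-CM (log2 fold change 0.50, SE 0.10), with no overlap of the groups. KLK13, a secreted kallikrein protease, had 6.54, 4.45 and 7.30 CPM and 8.15, 9.16 and 14.01 CPM (log2 fold change 0.77, SE 0.16), also without overlap. SLAMF7, a surface receptor of activated macrophages, NK cells and other lymphoid cells, had 67.1, 47.05 and 47.4 CPM and 92.4, 70.7 and 66.97 CPM (log2 fold change 0.53, SE 0.11). It was higher in each line by a similar step, and the groups overlapped because PC started above the other two lines. SCART1, a scavenger receptor family member found on γδ T cells, had 8.73, 8.64 and 9.49 CPM and 11.8, 13.7 and 12.9 CPM (log2 fold change 0.52, SE 0.12). TRDC, the constant part of the δ chain of the T cell receptor, had 10.9, 12.05 and 13.3 CPM and 16.9, 13.2 and 19.005 CPM (log2 fold change 0.44, SE 0.11). SCART1 did not overlap between media and TRDC did. Both genes were higher in each line, while the T cell marker sum given above was higher in PC and AG1 and lower in ORC. The part of T cell RNA in either gene was not tested. NR4A1, an immediate early nuclear receptor, had 10.04, 7.29 and 8.06 CPM and 11.4, 12.1 and 16.2 CPM (log2 fold change 0.67, SE 0.16), and the groups did not overlap. EHF, an ETS family transcription factor, had 10.5, 4.10 and 10.6 CPM and 12.4, 8.69 and 22.4 CPM (log2 fold change 0.80, SE 0.20), with overlap. ASPM and CDCA3, both proteins of the mitotic apparatus, had 23.1, 15.4 and 24.9 CPM against 16.1, 13.4 and 15.4 CPM and 9.98, 7.68 and 11.9 CPM against 5.81, 6.90 and 6.39 CPM with resting MSC-CM. Their log2 fold changes were 0.49 (SE 0.12) and 0.64 (SE 0.15). POLE, the leading-strand DNA polymerase, was close behind at 20.6, 16.1 and 14.9 CPM and 24.4, 19.1 and 26.4 CPM (log2 fold change 0.45, SE 0.11). The remaining genes of the 12 on this side were FBF1, a centrosome and cilium protein (0.37, SE 0.091), and TACC2, a centrosome and spindle protein (0.38, SE 0.095).

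**Figure D2:**
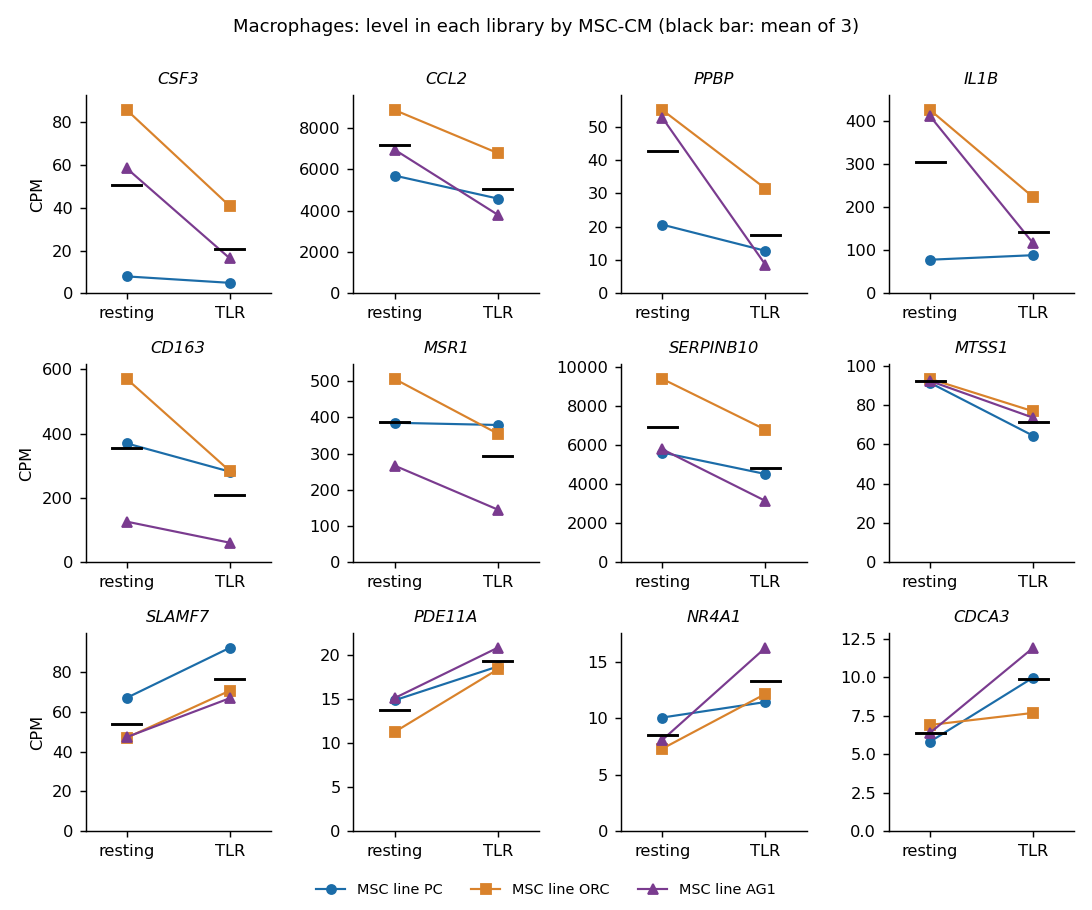
CPM of 12 genes in the 6 macrophage libraries, with resting MSC-CM at left and TLR-MSC-CM at right of each panel, a symbol and line per MSC line and a black bar for the mean of 3, on axes that start at 0. CSF3, CCL2, PPBP, CD163, MSR1, SERPINB10 and MTSS1 slope down in 3 of 3 lines, IL1B slopes down in ORC and AG1 only, and the 4 genes of the bottom row slope up in 3 of 3 lines. All but IL1B were picked for the same sign in 3 of 3 lines.

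The 10 genes that DESeq2 called included 5 with a symbol and counts in all 6 libraries. CCL2, SERPINB10, F3 and NT5DC2 were lower (DESeq2 adjusted p = 0.00278, 0.00241, 0.0194 and 0.0194), and SLAMF7 was higher (DESeq2 adjusted p = 0.0234). CTTNBP2 and HFM1 were called on 10 and 8 counts that fell in a single TLR-MSC-CM library each, with 0 counts in the other 5 libraries of both media, so each of these calls rests on 1 library. The 3 others were listed by Ensembl identifier alone, and among these ENSECAG00000000548 had 21.7, 15.1 and 14.6 CPM with resting MSC-CM and 40.3, 18.5 and 34.9 CPM with TLR-MSC-CM.

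Cytokine and chemokine genes had p of at most 0.05 more often on the lower side than on the higher. Of 43 tested, 14 were lower and 3 higher at p of at most 0.05, against 3.22% and 3.05% of all genes, and the median log2 fold change was −0.11. The list as a whole was near an even split, with 20 genes of positive and 23 of negative fold change. By line the median difference in log2(CPM + 1) was −0.044, −0.23 and −0.077, below zero in each line and lowest in ORC. Of the 43 genes, 19, 14 and 20 were higher by line. Averaged across these genes instead, log2 levels went from 5.69, 6.11 and 6.13 to 5.65, 5.93 and 5.91, with the widest gap in AG1. IL1B, which encodes the inflammasome-processed IL-1β, had 77.7, 424 and 409.9 CPM with resting MSC-CM and 88.2, 222 and 116 CPM with TLR-MSC-CM (log2 fold change −0.90, SE 0.27). IL1A, its unprocessed relative, had 9.62, 45.5 and 44.1 CPM and 10.7, 26.3 and 11.1 CPM (log2 fold change −0.95, SE 0.29). Both were lower in ORC and AG1 and slightly higher in PC, where the resting level was several-fold below that of the other lines. CXCL1, a neutrophil chemoattractant, had 1191, 3306 and 3423 CPM and 1067, 2619 and 1757 CPM (log2 fold change −0.47, SE 0.14), lower in 3 of 3 lines. CXCL8, encoding IL-8 with the same target, had 3117, 6816 and 8714 CPM and 2891, 6407 and 4610.5 CPM (log2 fold change −0.35, SE 0.15), with small gaps in PC and ORC and a wide one in AG1. CCL11, the eosinophil chemoattractant eotaxin, had 520.0, 772 and 809 CPM and 493, 635 and 591 CPM (log2 fold change −0.27, SE 0.10). IL10, the main anti-inflammatory cytokine of macrophages, had 8.28, 21.4 and 11.2 CPM and 8.89, 10.5 and 6.16 CPM (log2 fold change −0.60, SE 0.20), lower in ORC and AG1 but not in PC. CXCL6, IL15, CXCL14 and CCL24 lay on the same side, with log2 fold changes of −0.74, −0.47, −0.48 and −0.62. The genes on the other side were IL23A, a subunit of the T cell cytokine IL-23, and CCL17 and CCL22, chemokines that draw CCR4-bearing T cells. IL23A had 7.18, 5.02 and 7.86 CPM and 8.47, 7.25 and 19.4 CPM (log2 fold change 0.77, SE 0.28), higher in 3 of 3 lines. CCL17 (0.59, SE 0.19) and CCL22 (0.43, SE 0.17) were higher in ORC and AG1 and lower in PC. Without the AG1 libraries 8 of 41 genes of the list were lower and 1 was higher at that threshold, against 1.85% and 1.78% of all genes.

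The study also assayed proteins secreted into culture supernatants with a bead panel and ELISA, and of 27 gene names written for them 25 were tested here. For macrophages with TLR-MSC-CM the study reports no significant change in secreted cytokines. The values here are RNA and do not measure secretion. At p of at most 0.05, 9 of the 25 were lower and 1, FGF2, was higher, against 3.22% and 3.05% of all genes. The median log2 fold change was −0.11. With AG1 left out, 4 of 24 were lower and 3 higher, and without the ORC libraries 5 of 24 were lower and 2 higher. Besides the 8 described above, IL12B, a subunit of IL-12 and IL-23, was lower with 1, 4 and 5 counts against 0 in all 3 TLR-MSC-CM libraries, that is at least 3.70-fold lower against a floor of 3 counts over the group. TNF had 30.5, 29.1 and 60.8 CPM and 32.6, 27.4 and 76.8 CPM (log2 fold change 0.14, SE 0.13), and IL6 had 69.8, 76.2 and 71.5 CPM and 90.8, 70.8 and 62.2 CPM (log2 fold change 0.015, SE 0.19). Neither had p of at most 0.05, and for both of these acute inflammatory cytokines the difference between media was within the spread between lines. CXCL10, the interferon-induced chemokine IP-10, had 322, 557 and 141 CPM and 349.5, 304 and 190.4 CPM (log2 fold change −0.10, SE 0.19), higher in PC and AG1 and lower in ORC. IFNG, the macrophage-activating interferon of T and NK cells, had 5.36, 4.23 and 8.31 CPM and 6.14, 4.23 and 13.01 CPM (log2 fold change 0.32, SE 0.16). PTGS2, which makes the precursor of PGE2, had 29.7, 20.5 and 21.01 CPM and 43.3, 21.1 and 26.8 CPM (log2 fold change 0.33, SE 0.18), and PTGES, which makes PGE2 from it, had 0.23, SE 0.39 on the log2 scale. CSF2, encoding GM-CSF, IL4, IL5 and IL13 had log2 fold changes of 0.11, 0.24, 0.15 and −0.20, each within 2 SE of zero. The same held for CCL5 (−0.11, SE 0.12), IL18 (0.0086, SE 0.14), IL12A (−0.17, SE 0.26), IL2 (0.45, SE 0.70) and TGFB1 (−0.12, SE 0.11).

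Genes that mark the mature macrophage lay mostly on the lower side with TLR-MSC-CM. Of 27 macrophage identity genes tested, 21 had a negative fold change, with a median of −0.19. At p of at most 0.05, 8 were lower and 0 higher, against 3.22% and 3.05% of all genes. By line the median difference was −0.017, −0.16 and −0.35, near zero in PC and widest in AG1. CD163, the haemoglobin scavenger receptor of resident-type macrophages, had 369, 570.0 and 126 CPM with resting MSC-CM and 282, 283 and 60.5 CPM with TLR-MSC-CM (log2 fold change −0.78, SE 0.20). MARCO, a scavenger receptor for bacteria and particles, had 11.2, 8.77 and 2.22 CPM and 5.79, 5.61 and 0.734 CPM (log2 fold change −0.97, SE 0.28). MSR1, scavenger receptor A, had 385, 506 and 267 CPM and 379, 355 and 145 CPM (log2 fold change −0.45, SE 0.14). All 3 scavenger receptors were lower in each line, and their groups overlapped because AG1 was already low with resting MSC-CM. AIF1, an actin-bundling protein of macrophages, and the Fc receptor partners FCER1G and TYROBP had log2 fold changes of −0.38, −0.27 and −0.23, each lower in 3 of 3 lines. LYZ, lysozyme (−0.49, SE 0.22), was lower in PC and AG1 only. STAB1, another scavenger receptor, was at 54.5, 88.99 and 45.4 CPM and 33.8, 77.2 and 8.14 CPM (log2 fold change −0.98, SE 0.34), and 4 of 23 scavenging and phagocytosis genes were lower at that threshold, with 0 higher. The summed level of all 17 macrophage markers, scaled by TMM like the genes, was 15928, 15628 and 14292 CPM with resting MSC-CM and 15114, 14806 and 12360 CPM with TLR-MSC-CM. Without the AG1 libraries 3 of 27 macrophage identity genes were lower at p of at most 0.05, against 1.85% of all genes, and the median was −0.11. Without the ORC libraries 5 were lower and 3 higher, against 3.48% and 3.55% of all genes.

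Lysosomal genes, which break down what macrophages take up, lay to one side by a small amount. Of 63 tested, 54 had a negative fold change and 28 were lower in 3 of 3 lines, against 15.8% of all genes, but 3 had p of at most 0.05 and the median was −0.083. With AG1 left out, 5 had p of at most 0.05 on the lower side and the median was −0.0497, and without the AG1 library with TLR-MSC-CM alone 0 had, with a median of −0.047. CTSL, the protease cathepsin L, had 2007, 2893 and 1614 CPM and 1864, 2277 and 935 CPM (log2 fold change −0.38, SE 0.17). NPC1 and NPC2, which move cholesterol out of lysosomes, had log2 fold changes of −0.17 (SE 0.079) and −0.19 (SE 0.079). Among 26 genes of cholesterol efflux and lipid storage 4 were lower and 0 higher at that threshold, namely NPC1, NPC2, FABP5 and FABP4, and without the AG1 libraries 2 were lower. FABP5, a fatty acid carrier, had 573, 912 and 502 CPM and 548, 693 and 402 CPM (log2 fold change −0.25, SE 0.11). FABP4, the carrier found in adipocytes and lipid-loaded macrophages, had 1.34, 2.36 and 0.345 CPM and 0.288, 1.26 and 0.220 CPM (log2 fold change −1.27, SE 0.44), at low counts throughout. On the synthesis side, 22 of 28 cholesterol synthesis and uptake genes had a positive fold change, 3 of them with p of at most 0.05 (among them FDFT1 at 0.17 and IDI1 at 0.15), with a median of 0.085, and without the AG1 libraries 1 had p of at most 0.05. FASN, fatty acid synthase, had 262, 189 and 234 CPM and 286, 237 and 269 CPM (log2 fold change 0.23, SE 0.077).

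Matrix-degrading enzymes and their inhibitors, which set the breakdown of cartilage matrix, had p of at most 0.05 more often on the lower side than on the higher. Of 27 tested, 16 had a negative and 11 a positive fold change. At p of at most 0.05, 10 were lower and 1 higher, against 3.22% and 3.05% of all genes. The median was −0.16, with medians by line of −0.13, 0.032 and −0.22. In ORC 15 of the 27 were higher, so ORC did not share the direction. MMP9, gelatinase B, had 18618, 25097 and 25394 CPM with resting MSC-CM and 14241, 24037 and 12932 CPM with TLR-MSC-CM (log2 fold change −0.44, SE 0.17). The gap was wide in AG1 and PC and narrow in ORC. MMP14, the membrane-bound collagenase, had 479.8, 477 and 469 CPM and 406, 457 and 315 CPM (log2 fold change −0.28, SE 0.12), without overlap. PLAU, urokinase, had 178, 189 and 151 CPM and 150.1, 166 and 112 CPM (log2 fold change −0.27, SE 0.095). TIMP2, an inhibitor of metalloproteinases, lay on the same side, at 240.5, 278 and 233 CPM and 219.9, 236 and 174 CPM (log2 fold change −0.25, SE 0.086). MMP1, MMP12 and MMP19 had log2 fold changes of −0.97, −0.63 and −0.81, and MMP1 and MMP12 were higher in ORC. The exception was MMP2, gelatinase A, with 1.29, 0.829 and 1.85 CPM and 2.21, 2.97 and 2.47 CPM (log2 fold change 1.04, SE 0.35), higher in 3 of 3 lines without overlap. MMP2 is a product of stromal cells in many tissues. The stromal marker sum given above was higher with TLR-MSC-CM in PC and ORC and lower in AG1, and the part of stromal RNA was not tested. Without the AG1 libraries 2 of 26 genes of the list were lower and 1 was higher, against 1.85% and 1.78% of all genes. Without the PC libraries 2 of 27 were lower and 2 higher, against 3.2% and 2.61% of all genes.

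Genes of several further lists had p of at most 0.05 on the lower side, and they are given by the naming rule and do not form a list of their own. PYCARD, the inflammasome adaptor ASC, had 36.5, 43.95 and 35.1 CPM and 33.2, 34.3 and 24.3 CPM (log2 fold change −0.33, SE 0.10), without overlap. NLRP3, the sensor that joins it, had 65.5, 67.5 and 60.2 CPM and 64.9, 53.98 and 43.6 CPM (log2 fold change −0.26, SE 0.10). C5AR1 and C3AR1, receptors of the complement fragments C5a and C3a, had log2 fold changes of −0.52 (SE 0.18) and −0.44 (SE 0.18), and the gap was widest in AG1 for both. VCAM1, an NF-κB-driven adhesion molecule, had 170.5, 193 and 35.5 CPM and 113, 91.9 and 7.83 CPM (log2 fold change −1.11, SE 0.35). TNFAIP6, encoding the hyaluronan-binding protein TSG-6, had 101, 81.7 and 112 CPM and 89.9, 76.3 and 53.9 CPM (log2 fold change −0.44, SE 0.16). THBS1, thrombospondin, had 131, 415 and 265 CPM and 109, 278 and 84.97 CPM (log2 fold change −0.75, SE 0.26). The NF-κB list as a whole was balanced: 2 of 41 genes were higher (BIRC3 and TRAF6), 2 lower (VCAM1 and TNFAIP6), and the median was 0.0017. TFRC, the transferrin receptor, and SLC39A14, a zinc and iron importer, had log2 fold changes of −0.38 (SE 0.14) and −0.28 (SE 0.11). PFKFB3, which drives glycolysis in activated macrophages, had 386, 628 and 320.1 CPM and 358, 399 and 192 CPM (log2 fold change −0.48, SE 0.14), lower in each line. ITGB1, the β1 integrin chain, and CD44, the hyaluronan receptor, were lower without overlap, at −0.31 (SE 0.10) and −0.22 (SE 0.082).

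Genes of several lists likewise had p of at most 0.05 on the higher side. The list of classical activation that CCR7, INHBA and IDO1 belong to did not lie to one side, with 4 of 23 genes higher, 2 lower and a median of −0.0077. CCR7, the receptor that guides dendritic cells and activated macrophages to lymph nodes, had 233, 137 and 269 CPM with resting MSC-CM and 239, 202 and 366 CPM with TLR-MSC-CM (log2 fold change 0.35, SE 0.11). INHBA, which encodes activin A, had 838, 436 and 1440.1 CPM and 855, 766 and 1783 CPM (log2 fold change 0.39, SE 0.13). CD274, the checkpoint ligand PD-L1, had 308, 154 and 239 CPM and 328, 237 and 295 CPM (log2 fold change 0.34, SE 0.12). On the log2 scale the gap of all 3 was smallest in PC and widest in ORC. IDO1, the tryptophan-degrading enzyme, was higher in PC and AG1 but not in ORC (0.59, SE 0.18). CIITA, the master regulator of MHC class II, had 36.5, 22.1 and 38.2 CPM and 40.7, 28.8 and 54.98 CPM (log2 fold change 0.37, SE 0.15), and its target CD74 had 0.28, SE 0.13, higher in PC and AG1. Of 29 immediate early genes 5 were higher and 0 lower at p of at most 0.05, against 3.05% and 3.22% of all genes. The median of these 29 was 0.057, with medians by line of −0.13, 0.21 and 0.10. Without the ORC libraries 3 of them were higher and 2 lower, against 3.55% and 3.48% of all genes, and the median was −0.010. The 5 genes of the fit over all lines were NR4A1, DUSP4, FOSB, EGR2 and NR4A3, and of these NR4A1 and DUSP4, a phosphatase of MAP kinases at 97.2, 99.7 and 111 CPM and 119, 113 and 151 CPM (log2 fold change 0.31, SE 0.080), were higher in 3 of 3 lines without overlap. FLT3, a receptor of dendritic cell progenitors, and WARS1, an interferon-induced tRNA synthetase, had log2 fold changes of 0.40 (SE 0.16) and 0.43 (SE 0.19).

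Cell cycle genes lay almost wholly on the higher side in the fit over the 3 lines. Of 85 mitosis genes tested, 83 had a positive fold change, and 31 were higher and 0 lower at p of at most 0.05, against 3.05% and 3.22% of all genes, with a median of 0.30. Of 62 DNA replication genes, 59 had a positive fold change and 19 were higher with 0 lower, with a median of 0.18. Of 40 DNA repair genes, 33 had a positive fold change and 2, FANCD2 and XPC, were higher, with a median of 0.093, and without the ORC libraries 6 were higher. The direction was not common to the lines, since the median difference of the mitosis list was 0.20, −0.057 and 0.58 and that of the replication list 0.14, −0.0031 and 0.37. In ORC it was thus near zero, and the AG1 library with TLR-MSC-CM carried the widest gap. For the mitosis list 27 of 85 genes were higher in 3 of 3 lines, against 11.8% of all genes, and 4 did not overlap, against 2.81%. Without the AG1 libraries 4 of 85 mitosis genes and 4 of 62 replication genes were higher at p of at most 0.05, against 1.78% of all genes, and the medians were 0.098 and 0.078. Without the PC libraries 13 mitosis and 8 replication genes were higher, against 2.61% of all genes. Without the ORC libraries 56 and 25 were higher, against 3.55% of all genes, and the mitosis median was 0.43. DLGAP5, which stabilises the spindle, had 6.37, 5.63 and 5.97 CPM with resting MSC-CM and 8.76, 6.39 and 11.01 CPM with TLR-MSC-CM (log2 fold change 0.53, SE 0.15), without overlap. POLA2, a subunit of the primase complex, had 10.04, 10.998 and 11.9 CPM and 13.5, 13.4 and 17.1 CPM (log2 fold change 0.42, SE 0.11), also without overlap. TYMS, thymidylate synthase, had 35.6, 34.3 and 48.8 CPM and 42.01, 40.9 and 57.8 CPM (log2 fold change 0.26, SE 0.074), a similar step in each line. FOXM1, the transcription factor of late cell cycle genes, and TOP2A, the topoisomerase of dividing cells, had log2 fold changes of 0.74 (SE 0.23) and 0.35 (SE 0.14), and TOP2A was slightly lower in ORC. G1 cyclins and kinases, which act before replication, had a median of 0.021, with 0 of 20 genes at p of at most 0.05 in either direction.

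**Figure D3:**
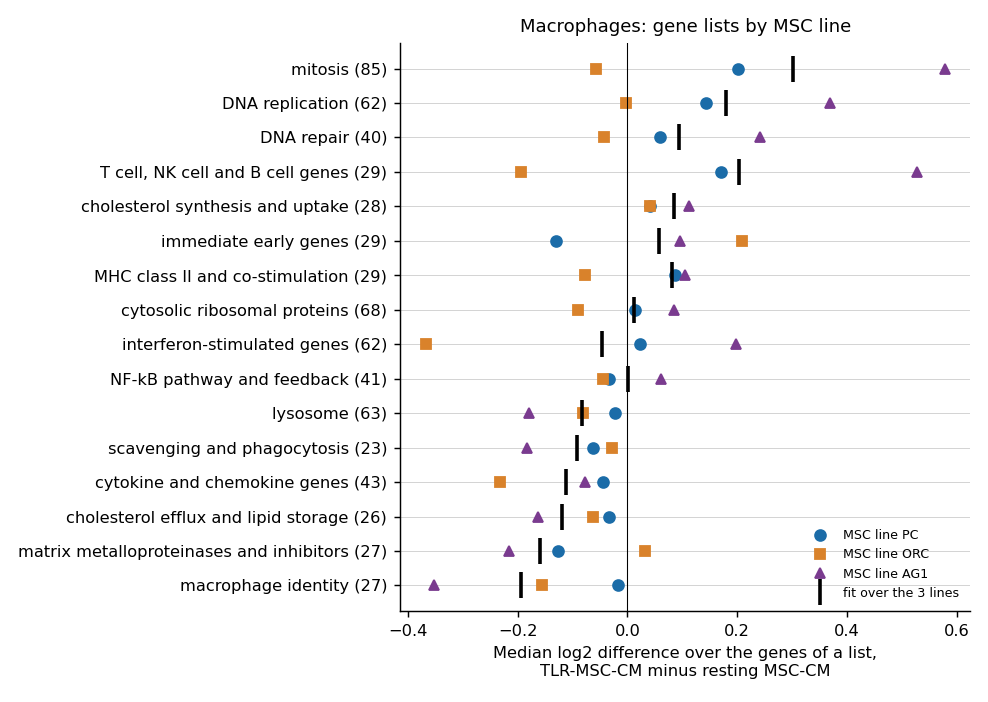
Median log2 difference, TLR-MSC-CM minus resting MSC-CM, over the genes of 16 lists (number of genes tested in parentheses), with a symbol per MSC line and a black bar for the median of the fitted log2 fold changes over the 3 lines. Mitosis runs from −0.057 in ORC to 0.58 in AG1 and the lymphocyte list from −0.19 to 0.53, while the macrophage identity list runs the other way in AG1.

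Lymphocyte genes lay on the same side as the cell cycle lists. Of 29 T, NK and B cell genes, 24 had a positive fold change, 5 were higher (JCHAIN, CD3G, CD6, CD5 and LCK) and 1 lower (NCR1) at p of at most 0.05, with a median of 0.20. By line the median difference was 0.17, −0.19 and 0.53, the same order of lines as for mitosis. That order was not particular to these lists. Interferon-stimulated genes (0.022, −0.37 and 0.20), cytosolic ribosomal proteins (0.013, −0.091 and 0.084) and MHC class II genes (0.086, −0.077 and 0.11) had it too. Without the AG1 libraries 0 of 29 were higher and 2 lower at that threshold, and the median was −0.019. Without the ORC libraries 16 were higher and 1 lower, against 3.55% and 3.48% of all genes. The mean of log2(CPM + 1) over the mitosis list was 3.39, 3.30 and 3.25 with resting MSC-CM and 3.60, 3.25 and 3.81 with TLR-MSC-CM, beside T cell marker sums of 321, 370.1 and 352 CPM and 381, 346 and 561 CPM. The part that lymphocytes in the cultures have in the cell cycle counts was not tested. NCR1, the NK cell receptor NKp46, went against the rest, with 4.47, 4.93 and 4.78 CPM and 3.01, 3.85 and 1.37 CPM (log2 fold change −0.90, SE 0.25), without overlap. JCHAIN, the linker of secreted antibodies, had 75.6, 61.8 and 70.2 CPM and 78.05, 76.4 and 86.4 CPM (log2 fold change 0.23, SE 0.077), also without overlap. In single libraries without CM the mitosis list had a mean of 3.34 with the cytokines only and 3.29 with no addition, within the range of the resting libraries.

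**Figure D4:**
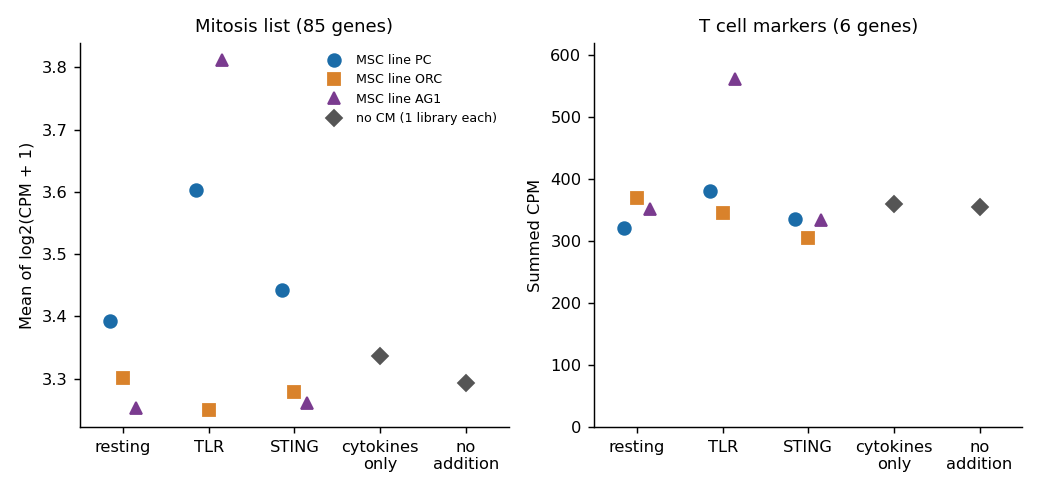
Mean of log2(CPM + 1) over 85 mitosis genes (left, axis not from 0) and summed CPM of 6 T cell markers, scaled to total counts without TMM (right), in each macrophage library, by medium, with a symbol per MSC line and diamonds for the single libraries without CM. The AG1 library with TLR-MSC-CM is highest in both panels, at 3.81 and 561 CPM, and the ORC library with TLR-MSC-CM lies below the resting one in both.

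Poly I:C is known as an inducer of interferon responses in the cells that meet it. Here it was given to the MSC and the macrophages were given the CM, and any poly I:C left in the CM was not tested. Of 62 interferon-stimulated genes tested, 23 had a positive fold change, 2 were higher (IDO1 and CD274) and 0 lower at p of at most 0.05, with a median of −0.046. The lines did not share a direction, with median differences of 0.022, −0.37 and 0.20. The count rests on the lines as well: without the AG1 libraries 1 of 62 was higher and 15 were lower, with a median of −0.16, against 1.78% and 1.85% of all genes. Without the resting AG1 library alone 18 were lower, with a median of −0.19, and without the ORC libraries 4 were higher and 0 lower, with a median of 0.099. Ribosomal proteins of the cytosol had a median of 0.012 over 68 genes, with RPS10 alone at p of at most 0.05 (−0.22, SE 0.090). By line 38, 5 and 60 of the 68 were higher, with median differences of 0.013, −0.091 and 0.084. The respiratory chain (−0.0030 over 68 genes), translation factors (7.75e-05 over 28) and heat shock proteins (0.021 over 20) had medians close to the median of all genes. Genes of glycolysis and hypoxia had a median of −0.049, with EGLN3, an oxygen sensor, higher (0.33, SE 0.11) and PFKFB3, P4HA1 (−0.25, SE 0.088) and PDK1 (−0.45, SE 0.20) lower at p of at most 0.05, and without the ORC libraries 8 of 40 were lower.

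The genes past the study's fold threshold were nearly all at a few counts per library, so their counts are given. FGF2, a growth factor for mesenchymal cells and chondrocytes, had 0, 0 and 2 counts with resting MSC-CM and 3, 11 and 7 with TLR-MSC-CM. Summed over lines and scaled to depth this is a ratio of 9.46, with an exact 95% interval of 2.31 to 83.2 for counting error only. SLC39A4, a zinc importer, had 2, 7 and 5 counts with TLR-MSC-CM and 0 in all resting libraries, at least 4.21-fold higher against a floor of 3 counts over the group. DRC7, a protein of the ciliary axoneme, had 5, 0 and 2 and 6, 15 and 17 counts, and MACROD2, an ADP-ribose hydrolase, had 6, 2 and 0 and 11, 17 and 11. Higher by the same rule were also MAP7D2, a microtubule protein, with 11, 1 and 1 and 8, 37 and 34 counts, CNN1, a smooth muscle calponin, with 2, 0 and 5 and 10, 5 and 12, SYT4, a vesicle protein, with 1, 1 and 2 and 7, 5 and 9, and EPB42, a red cell membrane protein, with 2, 0 and 2 and 5, 4 and 10. S100A12, an alarmin of neutrophils and monocytes, had 45, 26 and 20 counts with resting MSC-CM and 11, 16 and 0 with TLR-MSC-CM, lower in each line. ECATH-3, an equine cathelicidin of neutrophil granules, had 11, 12 and 22 and 3, 3 and 3 counts, lower in each line as well. NTF4, a neurotrophin, had 6, 4 and 6 counts with resting MSC-CM and 0 in all TLR-MSC-CM libraries, at least 5.92-fold lower. XCR1, the chemokine receptor of cross-presenting dendritic cells, had 4, 2 and 6 counts and 0, at least 4.44-fold lower. ARHGAP20, GRPR, INHBE and MEIOB were the others on the lower side, with 4, 7 and 13 against 1, 1 and 2, 8, 6 and 16 against 3, 3 and 0, 6, 5 and 4 against 2, 1 and 0, and 5, 7 and 7 against 1, 0 and 2 counts. At a log2 fold change of 2 or more, 66 of the 81 genes had the same sign in 3 of 3 lines. Over all genes 11.8% were higher and 15.8% lower in 3 of 3 lines. The 81 genes were picked by p and fold change in the same fit, so their agreement was largely set by the picking and is no further support. With a prior count of 2 in the fold change 3 genes were past the threshold.

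The same CM were given to synoviocytes and chondrocytes, and the difference between the changes was tested by an interaction term over 18 libraries of 2 cell types. By the labels those cells received IL-1β and TNF-α at 20 ng/mL each, against 10 ng/mL for macrophages, while the methods give 20 ng/mL for all. M-CSF is listed for macrophages only. Cell type, cytokine dose and culture therefore cannot be told apart in these differences. None of 16262 genes for synoviocytes and 16141 for chondrocytes reached an adjusted p under 0.05 with edgeR, where 1225 and 894 had an unadjusted p of at most 0.05 and the smallest adjusted p was 0.183 and 0.778. DESeq2 called 16 and 9 genes, but some of these had log2 differences too large to be read as sizes. Among them were CHODL (−36.0), THPO (36.5) and HFM1 (17.6) against synoviocytes and CMTM2 (43.0) against chondrocytes. In macrophages the counts of HFM1 with TLR-MSC-CM fell in a single library, as given above. At the unadjusted threshold the change was more positive in macrophages than in synoviocytes for 3.11% of genes and more negative for 4.43%, and against chondrocytes these shares were 2.56% and 2.98%. Of the mitosis list, 66 of 85 genes were more positive in macrophages than in synoviocytes and 0 more negative, and against chondrocytes 45 and 0. For DNA replication the counts were 39 and 0 of 62 against synoviocytes and 20 and 0 against chondrocytes. The median log2 fold change of the mitosis list was −0.27 in synoviocytes and −0.13 in chondrocytes. By line the synoviocyte medians were −0.19, −0.64 and 0.0017 and the chondrocyte medians −0.063, −0.068 and −0.29, so the widest gap lay in ORC in synoviocytes and in AG1 in chondrocytes. POLA2 had a log2 fold change of −0.46 in synoviocytes, and the difference from macrophages was 0.88, adjusted p = 0.536 by edgeR. For ASPM the difference was 0.65, adjusted p = 0.536 against synoviocytes and 0.64, adjusted p = 0.826 against chondrocytes by edgeR, and DESeq2 called ASPM in both. Lysosomal genes went the other way, with 11 of 63 more negative in macrophages than in synoviocytes and 0 more positive. Of 62 interferon-stimulated genes, 14 were more negative in macrophages than in synoviocytes and 0 more positive, and against chondrocytes 1 and 0. Their median log2 fold change was 0.35 in synoviocytes and 0.085 in chondrocytes. By line the synoviocyte medians were 0.028, 0.65 and 0.0085 over 59 genes. CSF3 and CCL2, lower in macrophages, had log2 fold changes of 0.25 and 0.26 in synoviocytes, and the differences were −1.51, adjusted p = 0.536 and −0.78, adjusted p = 0.536 by edgeR. CXCL10 had 3.48 in synoviocytes against −0.10 in macrophages, and the difference was −3.59, adjusted p = 0.536 by edgeR. The change of S100A12 differed by −2.68, adjusted p = 0.536 by edgeR and was called by DESeq2 against both cell types. None of these differences passed after adjustment over all genes in edgeR.

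**Figure D5:**
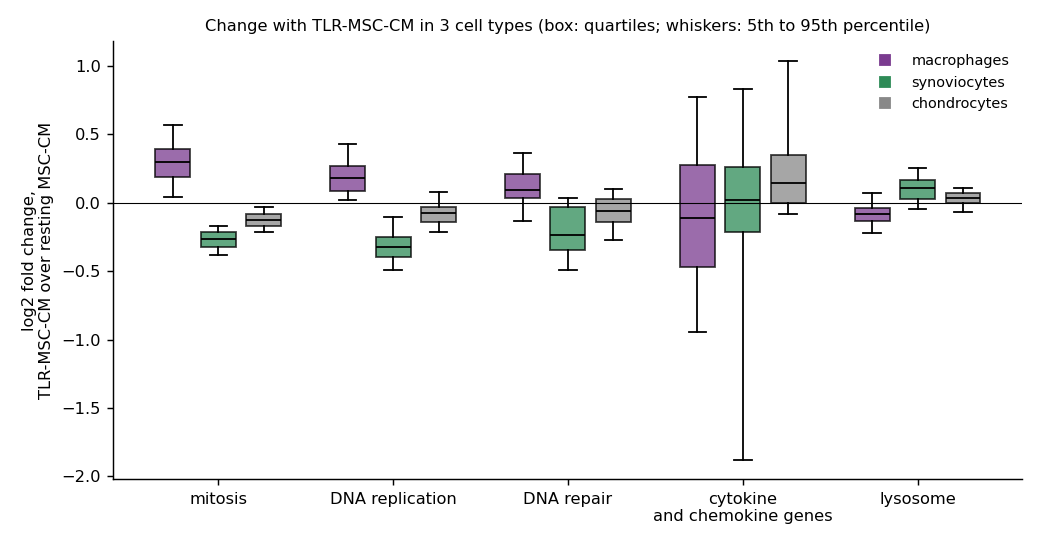
Log2 fold change of TLR-MSC-CM over resting MSC-CM for the genes of 5 lists in macrophages, synoviocytes and chondrocytes, with boxes for the quartiles, a line for the median and whiskers for the 5th to 95th percentile of genes, which are not replicates. The mitosis medians are 0.30, −0.27 and −0.13 in that order.

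CM of STING-activated MSC was set against the same resting libraries, so the 2 comparisons share their controls and are given side by side only. CSF3 stood at 7.68, 32.04 and 17.1 CPM and CCL2 at 4813, 6725 and 4571 CPM with STING-MSC-CM (log2 fold changes −1.19 and −0.42 against resting MSC-CM, −1.25 and −0.51 with TLR-MSC-CM). For G-CSF, the protein of CSF3, the study reports an increase in secretion by macrophages with STING-MSC-CM, unlike the RNA here. CD163 stood at 288, 623 and 169 CPM (0.093 against −0.78), DUSP4 at 71.7, 68.7 and 72.1 CPM (−0.53 against 0.31) and NLRC4 at 50.2, 57.5 and 30.2 CPM (0.45 against −0.45). The median of the mitosis list was 0.0041 there, beside 0.30 for TLR-MSC-CM. In the single libraries without CM, CCL2 had 6786 CPM with the cytokines only and 8629 CPM with no addition, and CD163 had 626 and 603 CPM. CSF3 had 14.5 and 25.2 CPM there, inside the range of the resting libraries.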

How the data were processed

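RNA of equine macrophages was sequenced in 6 libraries, 3 per medium, from 1 macrophage donor and, as the names in the labels are read here, 3 MSC lines. The deposited values are raw counts per protein-coding gene in 1 table for the series: per the methods and the submitters' processing notes, the authors trimmed reads with cutadapt 1.12, aligned them with STAR to EquCab3.0 and counted them with HTSeq 0.11.0 on Ensembl annotation, a step at which reads shared by near-identical genes may be lost or split. Of 20881 genes, 3970 carry an identifier only, and no name table of this build was used here. Genes with at least 10 counts over the 9 macrophage libraries with CM (15052) were tested with edgeR 4.0.16 (quasi-likelihood, TMM, R 4.3.3), with the MSC line as a block, on all 3 media, and with Benjamini-Hochberg adjustment over all genes. Levels of genes and lists are TMM-scaled CPM, and marker sums and floors are CPM of the total count without TMM unless stated, both without gene length, so levels were not compared between genes. The block follows the name that libraries share in the labels, which the labels do not define. Checked in the data, deviations from the medium means correlated at 0.34 to 0.57 across genes within a line. For other lines the values were −0.59 to 0.38 (median −0.23), so the ranges overlapped. Taking off the mean of each medium also pulls the values of other lines down. No pair of libraries was identical. DESeq2 1.42.0, other filters, scalings and left-out libraries were the alternatives, and the test was checked on simulated counts. A two-sided exact permutation test of log2(CPM + 1), pseudocount 1, cannot go below 0.1. Named genes were up to 12 per direction with the smallest p among genes with a symbol, a mean of at least 1 CPM and the same sign in 3 lines, up to 6 per direction past the study's thresholds with over 3 counts in each library of the higher group, up to 3 per list and direction with p of at most 0.05 and the same sign in 3 lines, and the genes of the bead assay. Other genes that make up a printed count, and ENSECAG00000042150, CTTNBP2, HFM1, FOXM1, TOP2A and the genes given for the other media, were named after their values were seen. The members and lists were chosen with earlier results of these data known. Of 39 lists, 38 had genes in the table, and the mitochondrially encoded one had none. Total counts of 23525704 to 40403096 per library set the precision, and intervals and floors of 3 counts cover counting error only. Some genes are not reported here.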

Additional observations from a re-analysis of the deposited data

How the results depend on the processing

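Without the replicate block, that is without the MSC line in the fit, 0 genes passed adjustment in the comparison and in both comparisons with other cell types, 94 genes were past the study's thresholds, and 203 genes were higher and 117 lower at an unadjusted p of at most 0.05, against 459 and 484 with it. With the line in DESeq2, 10 genes passed, with 16 and 9 for the differences from synoviocytes and chondrocytes, and these calls carry the limits given above. With the 6 libraries of the compared media alone 1 passed, CD163L1. Leaving out libraries gave 0 to 1 genes: PPBP without the AG1 library with TLR-MSC-CM and ENSECAG00000000548 without the ORC library with it. For synoviocytes the range over left-out lines was 0 to 4 (CCN1, COL5A1, CXCL10 and NUP210 without AG1), and for chondrocytes 0 to 3 (CCN1, COL5A1 and LAMA4 without AG1, and 1, STC1, without ORC). The 81 genes past the study's thresholds were 14 with edgeR's own expression filter, 48 with no filter, 47 in DESeq2 with the line, 52 with the 6 libraries and 3 with a prior count of 2 in the fold change, and 54 to 98 with libraries left out. The lists moved as well: without the block 19 mitosis genes were higher, and 4 cytokine genes, 0 macrophage identity genes and 1 metalloproteinase gene were lower, at p of at most 0.05. Over 17 alternatives, 116 of 125 named genes kept the sign of their fold change. Most named genes were picked for a small p or the same sign in all lines, so that count was largely set by the picking. The other 9 changed sign, with log2 fold changes over left-out libraries of −0.30 to 0.0055 for CCL5, −0.24 to 0.29 for CSF2, −0.38 to 0.28 for CXCL10, −0.21 to 0.21 for IL18, −0.076 to 0.83 for IL2, −0.20 to 0.30 for IL6, −0.25 to 1.014 for PTGES, −0.27 to 0.044 for TGFB1 and −0.072 to 0.23 for TNF. These 9 were all named only as genes of the bead assay, which were not picked by sign or p. IL18 also had −0.00053 with RLE scaling, −0.000715 and −0.0114 in DESeq2 with and without the line, and −0.00597 with the 6 libraries. The causes of these differences were not tested. With 3 lines and 1 macrophage donor, the spread between lines limits what can be called, and genes at a few counts per library are limited by depth as well.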

Other observations

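Growth factor genes were divided between both sides, with 3 of 40 higher (INHBA, BMP4 and FGF2) and 5 lower (GDF15, VEGFC, NTF4, EGF and FGF12) at p of at most 0.05 and a median log2 fold change of 0.0076. Without the ORC libraries 0 of 38 were higher and 7 lower, with a median of −0.22, and without the AG1 libraries 5 of 36 were higher and 1 lower. BMP4, a bone morphogenetic protein, had 0.777, 0.611 and 0.567 CPM with resting MSC-CM and 0.831, 1.16 and 1.42 CPM with TLR-MSC-CM (log2 fold change 0.81, SE 0.36), without overlap. GDF15, a stress-induced factor, had 2.44, 4.71 and 6.56 CPM and 1.47, 4.13 and 2.89 CPM (log2 fold change −0.67, SE 0.24), lower in 3 of 3 lines. VEGFC, a lymphatic growth factor, had 7.45, 6.50 and 14.2 CPM and 4.70, 7.45 and 5.11 CPM (log2 fold change −0.70, SE 0.26), lower in PC and AG1 only. Among 16 genes of dendritic and mast cells, CCR7, FLT3 and IRF4 (0.37, SE 0.12) were higher and XCR1 was lower, with a median of 0.33, and without the ORC libraries 0 were higher.

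Lists of polarisation states had genes on both sides. Of 23 genes of classical activation 4 were higher (CCR7, IDO1, IL23A and INHBA) and 2 lower (IL1B and IL12B), with a median of −0.0077. Of 23 genes of alternative activation 3 were higher (CCL17, CCL22 and EGR2) and 5 lower (CD163, MSR1, STAB1, IL10 and CCL24), with a median of −0.12, and without the AG1 libraries 2 of 22 were higher and 3 lower, with a median of −0.0070. Among 29 genes of MHC class II and co-stimulation CD274, CIITA, CD74 and the class II chain listed as DRB (0.33, SE 0.15) were higher and ICOSLG, the ligand of a T cell co-receptor (−0.29, SE 0.085), was lower, with a median of 0.081 and medians by line of 0.086, −0.077 and 0.11. Without the AG1 library with TLR-MSC-CM 0 of these were higher and 1 lower, and the median was −0.014. Of 36 apoptosis and pyroptosis genes 4 were higher, among them BIRC3 and CFLAR (0.24, SE 0.10), both inhibitors of cell death, with the BH3 proteins BMF (0.40, SE 0.16) and PMAIP1 (0.34, SE 0.15), and 4 were lower, the inflammasome genes NLRC4, NLRP3 and PYCARD and the pore protein GSDMD (−0.21, SE 0.087), while without the ORC libraries 0 were higher and 2 lower. CDKN1A, the cell cycle brake p21 (0.28, SE 0.11), and GADD45B, a stress response gene (0.29, SE 0.13), were higher and GADD45G (−0.35, SE 0.11) lower among 28 brakes and p53 targets, so genes that halt the cycle lay on both sides. HMGB2, a chromatin protein of dividing cells (0.41, SE 0.15), and the histone H2AX (0.28, SE 0.12) were higher among 32 histone and chromatin assembly genes.

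Stromal and matrix genes had medians by line of 0.027, 0.43 and −0.33, with CNN1 higher and THBS1, LOX (−0.29, SE 0.11) and S100A4 (−0.38, SE 0.11) lower of 32 tested. With AG1 left out, 8 of 32 were higher and 2 lower, with a median of 0.58, and without the ORC libraries 0 of 31 were higher and 3 lower, with a median of −0.40. Of 35 genes of antioxidant defence, iron and metal handling 1 was higher (SLC39A4) and 4 lower (GPX4, SLC11A1, SLC39A14 and TFRC), with a median of −0.052, and without the AG1 libraries 0 of 34 were higher and 1 lower. GPX4, which removes lipid peroxides, was lower without overlap (−0.21, SE 0.089), as was VLDLR, a lipoprotein receptor (−0.43, SE 0.18). SLC11A1, the phagosomal metal exporter NRAMP1, had −0.40, SE 0.17 and was lower in ORC and AG1 only. Of the lists not described so far, these had at most 3 genes on either side at p of at most 0.05: the osteoclast programme (median −0.048, 3 lower), the unfolded protein response (0.026), fatty acid synthesis (0.058, 2 higher), ribosome biogenesis (0.032, 0), cytoskeleton and adhesion (−0.017, 2 higher and 3 lower) and complement (−0.12, 2 lower). Without the ORC libraries 5 of 20 complement genes were higher and 1 lower, with a median of −0.024, and 5 of 23 osteoclast genes were lower.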
